A study of Nicotiana tabacum with 20 samples.

Results

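The features described here are 25 of 24069 tobacco UniGene sequences whose leaf RNA was high in plants of 2 hairpin lines in their T1 generation and was lower again in the T2 progeny of 1 of them. The hairpin is directed against Tnt1, a retrotransposon of *Nicotiana tabacum*. Members were chosen on the measured reads. Each library was scaled by the median ratio of its counts to a feature's geometric mean, and 1 was added to the mean of the 4 scaled libraries of a group to give a level X. A member had X of at least 20 in HP8_T1 and in HP1_T1, and in each of them at least 2 times the X of WT, of C and of HP1_T2. The contrasts of the T1 groups with WT, C and HP1_T2 therefore define the set, and the levels below describe these contrasts without testing them.

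The 20 libraries came from leaves of 45-day-old plants kept in vitro in MS20 medium at 24 °C with 14 h of light, and total gene reads ranged from 1958952 to 3638494 per library. WT plants carried no transgene. C plants were regenerants that carried the empty vector, a 35S-intron-OCS terminator cassette with hygromycin resistance. HP8_T1 and HP1_T1 were regenerants of lines 8 and 1 that carried a 35S-driven sense-intron-antisense hairpin of a Tnt1 reverse transcriptase fragment with the OCS terminator, hygromycin resistance and the GUS reporter, and HP1_T2 came from self-pollination of HP1_T1 and carried the same transgene. Each group had 4 libraries, and the labels do not say that these were separate plants, so the spread and the p-values below cover differences between libraries that may be technical. Each hairpin line stands for 1 named line, the generation of C is not labelled, and C lacked GUS as well as the hairpin, so these differences cannot be told apart from the hairpin. T2 progeny of line 8 were not analysed here.

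Tnt1 belongs to the LTR retrotransposons, which are transcribed into RNA, copied into DNA by their own reverse transcriptase and inserted at further sites. A hairpin RNA with matching sense and antisense arms is cut by Dicer-like enzymes into small RNAs, which guide the silencing of matching sequences after and, in some cases, at transcription. In tobacco, Tnt1 is known for being transcribed in response to pathogen elicitors, wounding and tissue culture, through regulatory sequences in its LTR that resemble those of defence genes. The deposited tables name each feature by a UniGene identifier alone, and 0 of the 24069 identifiers matched a gene of the tobacco reference table. The products of the 25 members, their sequences, leaf marker genes and Tnt1 itself were therefore not examined here. Identifiers are given for 3 members, and the others are called by their length.

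The libraries differed in the room left for these features. A single sequence of 625 bases held 73.8% to 90.5% of gene reads, with group means of 89.4% in C, 84.3% in WT and 76.2% to 78.7% in the hairpin groups. Its part in the results below was not tested. Reads outside it ranged from 199341 in a C library to 647426 in an HP8_T1 library. Normalised reads are counts divided by the size factor of the library, which ran from 0.512 to 0.719 in C, 0.601 to 0.919 in WT, 0.981 to 1.19 in HP1_T2, 1.03 to 1.43 in HP8_T1 and 1.13 to 1.74 in HP1_T1. A single read thus weighed most in C.

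Together the 25 members held 1908 ± 28.7 normalised reads in HP8_T1 and 1215 ± 30.5 in HP1_T1, against 372 ± 50.9 in HP1_T2, 195 ± 20.2 in C and 163 ± 21.6 in WT (SD, n = 4 each). Abundant members weigh most in these sums, and that of 900 bases alone held 487 in HP8_T1 and 141 in HP1_T1. The median ratio of X of HP8_T1 to HP1_T1 over the members was 1.07. The members were a small part of the RNA, at most 0.437% of the reads outside the most abundant sequence in any library. By their mean X over the T1 groups they ranked between 78 and 2088 among all features, with a median rank of 1145. The rule fixes high ranks in advance, since only 1703 of the 24069 features had X of at least 20 in both T1 groups. In 24 of the 25 members all 8 T1 libraries lay above all 12 others, a separation found in 2.12% of the 7126 features tested. The rule used this contrast, so nothing is read from that count. The exception had 883 bases, with 16.7 normalised reads in the lowest HP1_T1 library and 20.1 in the highest HP1_T2 library. In bulk leaf RNA, a change in the number of cells of a type and a change of RNA per cell cannot be told apart.

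**Figure D1:**
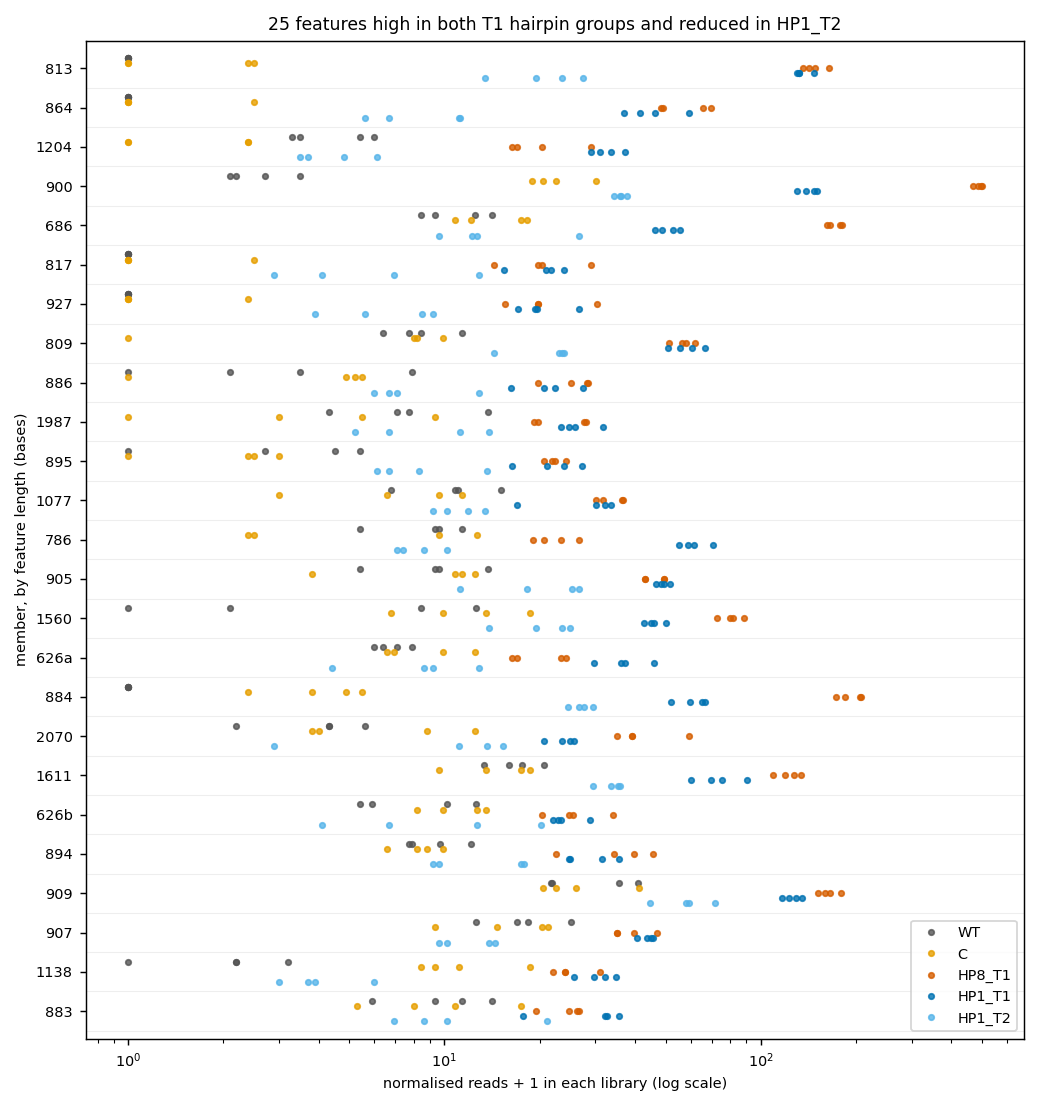
Normalised reads plus 1 in each of the 20 libraries (x axis, log scale) for the 25 members, ordered from the largest to the smallest ratio of the lower T1 level to the highest level among WT, C and HP1_T2, and labelled by length in bases (626a and 626b are 2 features of equal length). Each point is 1 library, with colours for the 5 groups, and a point at 1 means no read, as in all 4 WT libraries of 5 members.

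The members with the widest separation had next to no reads in the control plants. Nta#S36358855 (813 bases) had 0 reads in all 4 WT libraries and 2 reads over the 4 C libraries. Its normalised reads were 147.3, 134.7, 163.4 and 140.7 in HP8_T1, 131.3, 131.4, 128.9 and 146.8 in HP1_T1, with 18.4, 22.6, 26.5 and 12.4 left for HP1_T2. The T1 libraries of both lines lay close together, and the HP1_T2 libraries lay far below them but above every control library. The level in HP1_T2 was 14.8% of that in HP1_T1. Of its reads, 88.3% were unique, so a share may belong to a related sequence.

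Nta#S36359966 (864 bases) had the next widest separation, with 0 reads in WT and 1 read in C. It had 47.5, 64.8, 68.4 and 48.2 normalised reads in HP8_T1, 40.5, 35.9, 58.1 and 45.2 in HP1_T1, with 10.2, 10.1, 4.6 and 5.7 left for HP1_T2. The groups kept the same order, and HP1_T2 retained 17.0% of the HP1_T1 level. All its reads were unique.

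Further members with 0 reads in WT had lengths of 817, 927 and 884 bases. The 817-base member stood near the level limit of the rule, with 19.9 ± 6.14 normalised reads for HP8_T1, 19.5 ± 3.63 for HP1_T1 and 5.68 ± 4.46 for HP1_T2 (SD over 4 libraries). The 927-base member had almost the same levels, 20.3 ± 6.32, 19.6 ± 4.10 and 5.79 ± 2.50 in that order. Each had 1 read over the 4 C libraries. Neither met the rule with TMM, another scaling of the libraries, or without the added 1. The member of 884 bases had 183.2, 172.2, 206.7 and 205.2 normalised reads in HP8_T1, 64.3, 51.1, 58.7 and 65.8 in HP1_T1, with 28.5, 23.5, 25.6 and 26.7 left for HP1_T2. Its C libraries held 3.9, 1.4, 2.8 and 4.5, so here the groups formed a ladder from WT through C and HP1_T2 to HP1_T1 and HP8_T1 without overlap.

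The most abundant member, of 900 bases, was far higher in line 8 than in any other group. Its normalised reads were 485.6, 495.0, 498.6 and 469.4 in HP8_T1, 129.5, 138.1, 149.6 and 146.1 in HP1_T1, 36.7, 35.2, 34.8 and 33.4 in HP1_T2, 19.5, 21.6, 29.2 and 17.9 in C, and 1.7, 1.2, 1.1 and 2.5 in WT. No 2 groups overlapped. Per kilobase of sequence, the mean level was 541 normalised reads in HP8_T1, which was the highest of the 25 members in that group, and 157 in HP1_T1, where the 813-base member stood at 166. Of its reads, 85.0% were unique.

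The comparison of HP1_T2 with WT and with C asked how far above or below the control level the RNA of these features was in the progeny, a difference that the rule does not use. Of the 25 members, 13 were higher in HP1_T2 than in WT, 1 was lower and 11 were not called. Against C, 10 were higher, 1 was lower and 14 were not called. All 10 members above C were also above WT. Calls were made by edgeR's quasi-likelihood F test where the p adjusted after Benjamini and Hochberg over 7126 features was under 0.05, in 1 fit of all 20 libraries. Among all features tested, 27.8% were called higher and 24.5% lower than WT, and 17.2% higher and 16.2% lower than C. The median log2 difference of the members was 1.02 from WT and 0.89 from C, beside 0.11 and 0.06 for all features tested. As a ratio of X, the members' median was 1.99 to WT and 1.97 to C. These ratios were 3.92 and 3.19 with library totals, and 2.87 and 1.89 when reads outside the most abundant sequence set the scale. The rule keeps WT, C and HP1_T2 all low in the members, so their shares are not those of a set free to vary. Members with few other reads, such as those of 817 and 927 bases, passed the low-count filter only through the T1 groups. The split moved with the scale. With library totals, 23 members were higher than WT and 22 higher than C, with 0 lower in both. Of all 7126 features tested, 4803 were then called higher and 504 lower than WT, and 4645 higher and 205 lower than C. When reads outside the most abundant sequence set the scale, 19 members were higher and 0 lower than WT. Against C, 11 were higher and 1 lower. Of all 6922 features tested on that scale, 3626 were called higher and 882 lower than WT, and 1341 higher and 1107 lower than C. The shift with the scale was not particular to the members.

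The 10 members above both controls included the 5 without a read in WT. Among these, the HP1_T2 level was at least 27.7-fold that of WT for the 884-base member, at least 21.5-fold for Nta#S36358855, at least 8.17-fold for Nta#S36359966 and at least 6.19-fold for the members of 817 and 927 bases, with WT set at 3 reads over its 4 libraries. The adjusted p-values from edgeR ranged from 8.17e-17 (884 bases) to 5.74e-05 (817 bases). Against C, the log2 difference of the 884-base member was 2.86 (SE 0.38, edgeR adjusted p 1.21e-09). Nta#S36358855 was 26.2-fold above C with a counting interval of 7.04 to 220, from 87 against 2 reads (edgeR adjusted p 3.70e-10). For Nta#S36359966 the ratio was 19.9 with an interval of 3.33 to 808, from 33 against 1 read (edgeR adjusted p 0.000240). These intervals are exact 95% binomial intervals and cover counting error only.

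The other members above both controls had 809, 895, 905, 909 and 1611 bases. The most abundant of these, of 909 bases, had 39.9, 34.5, 20.7 and 20.9 normalised reads in WT, 19.5 to 40.2 in C, 57.1, 43.6, 70.5 and 58.2 in HP1_T2, 115.4, 121.7, 128.3 and 134.2 in HP1_T1, and 159.0, 150.6, 178.1 and 164.8 in HP8_T1. Its HP1_T2 libraries lay between the controls and the T1 groups without touching either. The log2 difference was 0.82 from WT (SE 0.19, edgeR adjusted p 0.000116) and 0.91 from C (SE 0.20, edgeR adjusted p 0.000154).

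The member of 1611 bases behaved alike, with 28.5, 32.7, 34.8 and 34.4 normalised reads in HP1_T2 against 12.3 to 19.6 in WT and 8.6 to 17.6 in C. Its log2 difference was 0.84 from WT (SE 0.23, edgeR adjusted p 0.00150) and 1.10 from C (SE 0.26, edgeR adjusted p 0.000391). The member of 809 bases had 20.2 ± 4.64 normalised reads in HP1_T2, 7.46 ± 2.09 in WT and 5.77 ± 3.95 in C (SD, n = 4). For the 905-base member only 11.5% of reads were unique, so its counts may stem largely from related sequences. Its difference from C was lost without C replicate 3 (edgeR adjusted p 0.112). The 895-base member rested on 34 reads in HP1_T2 and 8 in WT, and its difference from WT was lost without WT replicate 4 (edgeR adjusted p 0.109) or HP1_T2 replicate 2 (0.127).

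Members above WT but not called against C had 900, 1560 and 2070 bases. In the 900-base member, the log2 excess of HP1_T2 was 4.20 over WT (SE 0.36, edgeR adjusted p 1.06e-18) and 0.48 over C (SE 0.20, edgeR adjusted p 0.0759), although each of its HP1_T2 libraries lay above each C library. The member of 1560 bases had 18.4, 22.6, 12.8 and 23.9 normalised reads in HP1_T2, 17.6, 5.8, 12.5 and 8.9 in C and 11.6, 0.0, 1.1 and 7.4 in WT. Its HP1_T2 libraries overlapped with those of C and not with those of WT, and the difference from WT was 1.93 (SE 0.39, edgeR adjusted p 1.65e-05). The call of the 2070-base member against WT was lost without WT replicate 4 (edgeR adjusted p 0.0579), and 77.1% of its reads were unique.

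In 10 members HP1_T2 was called neither against WT nor against C, with mean levels of 3.54 to 14.3 normalised reads in HP1_T2. One of these was the member of 786 bases, with 6.1, 9.2, 6.4 and 7.6 normalised reads in HP1_T2. It had 8.3, 10.4, 4.4 and 8.6 in WT and 11.7, 8.6, 1.4 and 1.5 in C. HP1_T1 had 69.6, 54.2, 60.4 and 57.8 and HP8_T1 had 22.3, 18.0, 19.6 and 25.6. The excess over the mean of the controls in HP1_T2 was 0.907% of that in its parent line. The member of 686 bases had 11.2, 11.7, 25.6 and 8.6 in HP1_T2, among 7.4 to 13.1 in WT and 9.8 to 17.3 in C, against 45.2 to 54.7 in HP1_T1 and 161.3 to 180.3 in HP8_T1. Only HP1_T2 replicate 3 stood above the control libraries here. The 1204-base member had the lowest level, 15 reads in HP1_T2 against 11 in WT and 2 in C, a ratio of 4.52 to C with a counting interval of 1.05 to 40.7. Among all members not called against WT the SE of the log2 difference was 0.31 to 0.72, so differences larger than that could go uncalled at this depth. The 886-base member was not called at a log2 difference of 1.13 from WT (SE 0.54, edgeR adjusted p 0.0718). Its means were 7.19 normalised reads in HP1_T2, 2.61 in WT and 3.14 in C. A missing call thus does not show a return to the control level.

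HP1_T2 was called lower than a control in 2 members, beside 24.5% of all features tested called lower than WT and 16.2% lower than C. Nta#S45473699 (907 bases) was the only member called lower than WT, with 9.2, 13.4, 12.8 and 8.6 normalised reads in HP1_T2 against 11.6, 24.2, 17.4 and 16.0 in WT, 13.7, 20.2, 8.3 and 19.3 in C, 44.1, 39.6, 42.6 and 44.5 in HP1_T1 and 38.8, 46.1, 34.2 and 34.2 in HP8_T1. The log2 difference from WT was −0.86 (SE 0.29, edgeR adjusted p 0.00916). It was not called without WT replicate 2 (−0.65, edgeR adjusted p 0.0951) and changed sign to 0.33 with library totals (edgeR adjusted p 0.313), and was −0.11 outside the most abundant sequence (edgeR adjusted p 0.758). The member of 1138 bases was lower than in C, at a log2 difference of HP1_T2 from C of −1.82 with an SE of 0.46 (edgeR adjusted p 0.000980), and had 2.0, 5.0, 2.7 and 2.9 normalised reads in HP1_T2, 17.6, 10.1, 8.3 and 7.4 in C and 0.0, 1.2, 2.2 and 1.2 in WT. Its HP1_T2 libraries stood apart from C and reached into the range of WT. It was not called with library totals (−0.75, edgeR adjusted p 0.146). Neither the 1138-base member nor Nta#S45473699 met the rule with TMM, the scaling used in the edgeR fit. The members of 817, 883, 927 and 1204 bases and the 2 of 626 bases failed the rule with TMM too. The 1138-base member also failed it when reads outside the most abundant sequence set the scale.

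**Figure D2:**
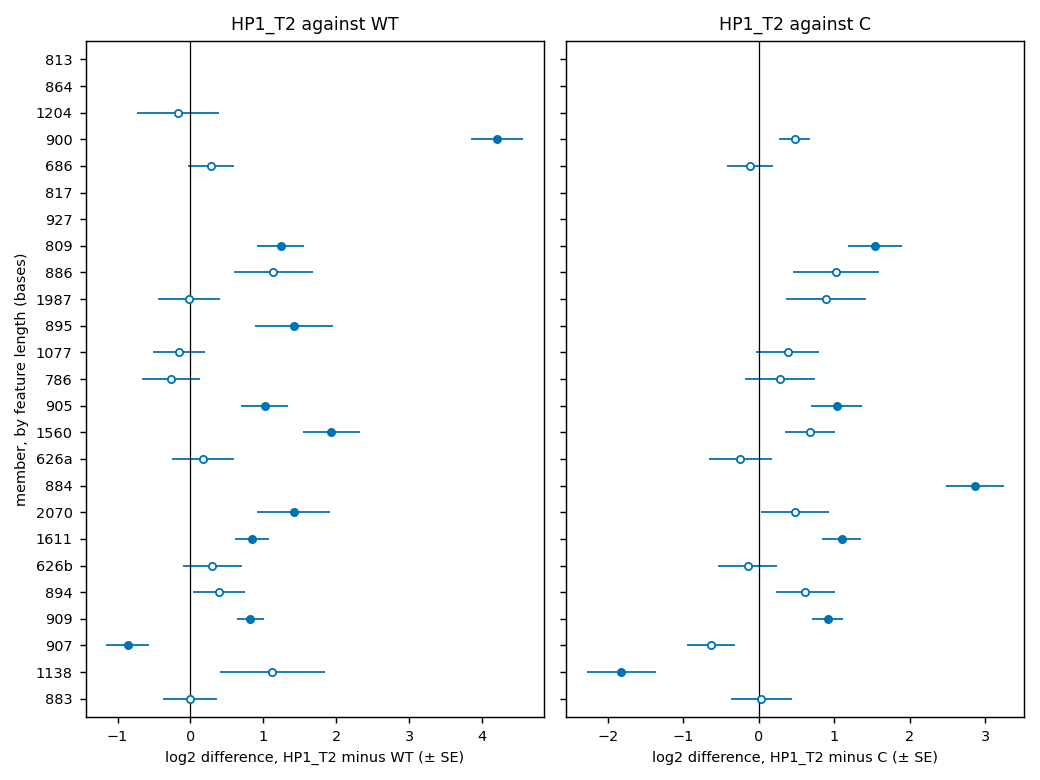
Log2 differences of HP1_T2 from WT (left) and from C (right) with their SE from the edgeR fit of 20 libraries, for the members in the order of the plot of normalised reads by library. Filled points passed an adjusted p of 0.05, open points did not, and members with 3 or fewer reads over the 4 control libraries are left blank because a fitted difference is no bound there. The 900-base member lies at 4.20 against WT and the 1138-base member at −1.82 against C.

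Across the members, HP1_T2 kept 10.7% to 45.9% of the HP1_T1 level, with a median of 34.9%. The rule caps this share and the share of the excess given next. After the mean of WT and C was taken off, 18.0% of the excess of HP1_T1 remained in the median member, with a range from −20.3% in Nta#S45473699 to 42.0% in the 884-base member. All 25 members had a read in every hairpin library, HP1_T2 included.

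The 2 lines were compared in T1, a difference that the rule leaves free. Of the 25 members, 7 were higher in HP8_T1 than in HP1_T1, 3 were lower and 15 were not called (edgeR adjusted p under 0.05), beside 20.7% higher and 20.3% lower among all features tested. The median log2 difference of the members was 0.10 and that of all features tested −0.02. With reads outside the most abundant sequence as the scale 6 members were higher and 8 lower, and with library totals 6 were higher and 4 lower. Of all 6922 features tested on the first of these scales, 829 were called higher and 2400 lower. On the second, 969 of 7126 were called higher and 1953 lower. The differences towards line 8 were widest in members of 900, 686 and 884 bases, with log2 differences of 1.78 (SE 0.08, edgeR adjusted p 4.86e-35), 1.76 (SE 0.12, adjusted p 5.84e-23) and 1.68 (SE 0.11, adjusted p 5.96e-24). Their HP8_T1 means were 3.46, 3.43 and 3.20 times those of HP1_T1. Members of 2070, 1560, 1611 and 909 bases followed with differences of 0.88, 0.81, 0.72 and 0.38, the last of which was not called with library totals (0.18, edgeR adjusted p 0.291) or outside the most abundant sequence (0.08, adjusted p 0.573).

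Towards line 1, the 786-base member differed most, at −1.50 on the log2 scale with an SE of 0.18 (edgeR adjusted p 2.90e-11), and none of its HP8_T1 and HP1_T1 libraries overlapped. A member of 626 bases followed with −0.94 (SE 0.21, edgeR adjusted p 0.000110), from 22.3, 15.9, 15.4 and 23.3 normalised reads in HP8_T1 and 35.2, 45.0, 36.2 and 28.6 in HP1_T1. The 1204-base member had −0.70 (SE 0.21, edgeR adjusted p 0.00560). Neither it nor this 626-base member met the rule with TMM or without the added 1. When 1 library was left out, the 626-base member met the rule in 14 of 20 cases. Nta#S36358855 and Nta#S36359966 were among the 15 not called, with log2 differences of 0.12 (SE 0.10, edgeR adjusted p 0.368) and 0.35 (SE 0.16, edgeR adjusted p 0.0694). A p above the threshold does not show equal levels in the lines.

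**Figure D3:**
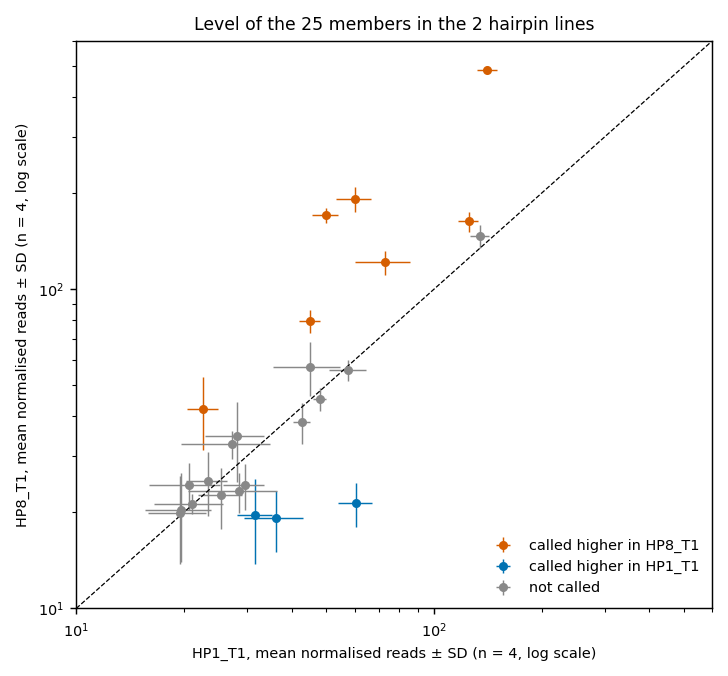
Mean normalised reads with SD (n = 4) of the 25 members in HP1_T1 (x axis) and HP8_T1 (y axis), both on log scales, with the line of equal level dashed. The 7 members called higher in HP8_T1 lie above the line, up to a mean of 487 against 141, and the 3 called higher in HP1_T1 lie below it.

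Between the control groups, 4 members were higher in the empty-vector regenerants than in WT, 0 were lower and 21 were not called (edgeR adjusted p under 0.05), beside 19.6% higher and 21.0% lower among all features tested. At an unadjusted p under 0.05 edgeR had 1 member lower in C, and DESeq2 called 0 lower at its adjusted p. The 4 members had 900, 884, 1138 and 1560 bases. The 900-base member had a log2 difference of C from WT of 3.73, with an SE of 0.42 (edgeR adjusted p 1.70e-12), and the 1138-base member one of 2.94, with an SE of 0.60 (edgeR adjusted p 3.91e-05). The C level of the 884-base member was at least 3.29-fold that of WT, from 8 against 0 reads (edgeR adjusted p 0.00175). The call of the 1560-base member (log2 difference 1.26, SE 0.48, edgeR adjusted p 0.0297) was lost without any 1 of WT replicates 2 and 3 or C replicates 1 and 3, with adjusted p-values of 0.0791 to 0.181. When reads outside the most abundant sequence set the scale, 9 members were higher in C and 0 lower. Of all 6922 features tested on that scale, 2955 were called higher and 653 lower in C. The 4 were 16% of the members, no more than the 19.6% of all features tested, so nothing is read from their number. The members of 900, 884 and 1138 bases were above WT in regenerants without the hairpin too. The rule keeps X of C to at most 0.5 of that in either T1 group.

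The members were the low end of a continuous range of T2 levels. In all, 163 features had X of at least 20 in both T1 groups and at least 2 times that of WT and C. In 39 of them X of HP1_T2 was at or above the lower T1 group, in 99 it was between 0.5 and 1 of it, and in the 25 members it was between 0.155 and 0.483. The median over the 163 was 0.791. There was no gap at the limit, since 10 features lay between 0.4 and 0.5 and 17 between 0.5 and 0.6. By the same limits, 93 features were high in all 3 hairpin groups, 12 in HP1_T1 and HP1_T2 without HP8_T1, and 5 in HP8_T1 and HP1_T2 without HP1_T1. The mirror arrangement, low in both T1 groups against WT, C and HP1_T2, held for 7 features.

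**Figure D4:**
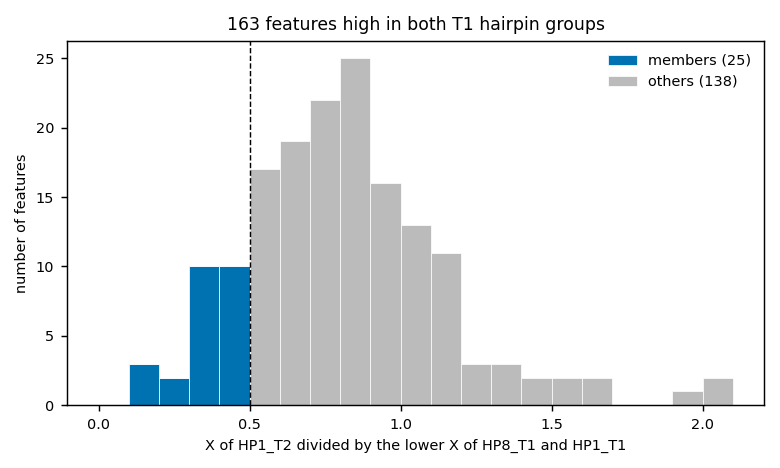
Number of features (y axis) by the ratio of X in HP1_T2 to the lower X of HP8_T1 and HP1_T1 (x axis, bins of 0.1) for the 163 features high in both T1 groups. The 25 members lie left of the dashed limit at 0.5, and the median of all 163 is 0.791.

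The members were also set beside the 138 T1-high features that were not members. In HP8_T1 against HP1_T1, 35 of the 138 were called higher and 27 lower (25.4% and 19.6%), against 28% and 12% of the members. Among all features tested these shares were 20.7% and 20.3%. In C against WT, 46 and 11 of the 138 were called higher and lower (33.3% and 7.97%), against 16% and 0% of the members. Here the shares among all features tested were 19.6% and 21.0%. These shares were not tested against each other. The median length was 895 bases in the members (626 to 2070), 918.5 in the 138 others and 914 in the 1703 features with X of at least 20 in both T1 groups. Fewer than 90% of reads were unique in 5 of the 25 members, with lengths of 813, 900, 905, 1204 and 2070 bases, and in 40 of the 138.

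Just inside the fold limit were the members of 883 and 1138 bases, whose lower T1 level was 2.07 and 2.13 times the highest level among WT, C and HP1_T2. Just outside were features of 951 and 1722 bases at 1.98 and 1.97. Just inside the level limit were a member of 626 bases at X of 20.2 and the 817-base member at 20.5, and just outside were features of 801 and 804 bases at 19.5 and 18.8.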

How the data were processed

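Per the labels, leaf RNA was precipitated with lithium chloride and the libraries were built with a SOLiD kit for total RNA. The aligner was not given in the sources used here, nor was the build. Per the file headers, the authors deposited, per UniGene feature, a length, counts of all gene reads and counts of unique gene reads in 2 tables. The WT counts of both tables were identical, so 1 fit of 20 libraries was made. Unique reads were 99.0% to 99.7% of all gene reads.

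The members and the choice of comparisons were made with earlier results of these data known. Size factors used the 1134 features with at least 10 reads in every library. All tests were run in R 4.3.3 with edgeR 4.0.16 and took the counts as deposited (TMM, filterByExpr with a minimum count of 10, group as the only term, common biological coefficient of variation 8.90%, SE taken from the fitted change and its F value). The fit was also run on simulated counts. These had far fewer changed features per contrast than were called here, and HP1_T2 against C was not scored. The simulation is therefore no check of the scaling. DESeq2 1.42.0 was an alternative. All 25 members passed the filter, which looks at all 20 libraries. The rule made them high in T1, so those with few other reads passed through the T1 groups alone. The shares of all features tested are therefore not a matched background for them. A group without reads was set at 3 reads over its 4 libraries. Identifiers were printed for the 2 members with the largest ratio of the lower T1 level to the highest of the other groups, and for the 1 member called lower in HP1_T2 than in WT. Other members were described by fixed rules: the 4 most abundant, the 2 most different in each direction in the contrasts between lines, of HP1_T2 with WT and of C with WT, and the members next to the fold limit, and further ones were singled out after their values were seen. Planned lists of genes by function and of cell type markers could not be applied without names.

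The replicate numbers were not used as pairs, since nothing in the labels says that they mark shared plants or days. Alternatives were other scalings, filters, tests, unique reads, thresholds of the rule, the replicate block and leaving out each library. Leaving out members with under 90% unique reads was chosen after seeing the data.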

Additional observations from a re-analysis of the deposited data

Results flagged for a closer look

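Of 130 sets of 4 libraries examined (25 members and their sum in 5 groups), 8 had a library apart from the other 3, relative to the range of the set. The limit used gives about 1 in 20 for normally distributed values. Low counts are not so distributed, and a set with reads in only 1 library always passes it. The number is therefore not read against chance. In C these were single reads or a missing read: replicate 4 with 1.5 normalised reads for the 864-base and the 817-base members, replicate 2 with 1.4 for the 927-base member and replicate 2 with 0.0 for the 886-base member. In the hairpin groups they were HP8_T1 replicate 1 for the 2070-base member (58.2), HP1_T1 replicate 4 for Nta#S36358855 (146.8), HP1_T2 replicate 1 for the 809-base member (13.3) and HP1_T2 replicate 3 for the 886-base member (11.9).

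Both lines carried the hairpin, and 10 members differed between them in T1 by edgeR's test of the difference itself, 7 higher and 3 lower in HP8_T1. Among all features tested 20.7% were called higher and 20.3% lower in this contrast, so the members' share was near that of all features. The log2 differences of HP8_T1 from HP1_T1 were 1.78 (900 bases), 1.76 (686), 1.68 (884), 0.88 (2070), 0.81 (1560), 0.72 (1611), 0.38 (909), −0.70 (1204), −0.94 (626) and −1.50 (786).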

How the results depend on the processing

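Whether a feature was a member depended on the limits and on the scale. Library totals kept all 25 and gained 104 others, and scaling outside the most abundant sequence kept 23 and gained 17. TMM kept 17 and gained 0, unique reads kept 22 and gained 2, and group medians kept 22 and gained 2. A constant of 0 kept 21 and gained 2, and one of 5 kept 18 and gained 3. Fold limits of 1.5 and 3 kept 25 and 7 and gained 50 and 0. Level limits of 10 and 50 kept 25 and 7 and gained 30 and 0. Leaving out 1 library kept 21 to 25 and gained 0 to 4, and 11 remained members in all 20 such cases. With library totals, HP1_T2 was higher in 23 and lower in 0 members against WT, and higher in 22 and lower in 0 against C. Among all 7126 features tested, these calls numbered 4803 and 504 against WT, and 4645 and 205 against C. Outside the most abundant sequence, 0 members were lower in HP1_T2 than in WT, 9 were higher in C than in WT and 8 were lower in HP8_T1 than in HP1_T1. The same calls were made in 882, 2955 and 2400 of all 6922 features tested on that scale. With unique reads, 1 member was lower in C than in WT. Leaving out 1 library gave 11 to 14 higher and 0 to 1 lower members for HP1_T2 against WT (0 lower without WT replicate 2), 10 to 11 and 1 to 2 for HP1_T2 against C (2 without C replicate 3), 3 to 4 and 0 to 1 for C against WT (1 without C replicate 3), and 7 to 8 and 3 to 3 for HP8_T1 against HP1_T1. Without the 5 members under 90% unique, 9 were higher in HP1_T2 than in WT and 8 than in C.

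Of the 39 single calls, 32 were kept in all 27 other fits in which the feature was tested, and 1 changed sign, the 907-base member in HP1_T2 against WT with library totals (0.33). The median ratio of X of HP8_T1 to HP1_T1 over the members was 1.07, and 0.932 and 0.876 with library totals and outside the most abundant sequence. The median ratio of C to WT was 1.14, and 1.42 outside the most abundant sequence. The median log2 difference of all features tested was 1.30 in HP1_T2 against WT with library totals and 0.81 outside the most abundant sequence, against 0.11 with TMM, and the cause was not tested. With the replicate block, the counts stayed at 13 and 1, 10 and 1, 4 and 0, and 7 and 3 members called higher and lower in the 4 contrasts. Same-numbered libraries of different groups shared some of their deviation. The share of the most abundant sequence fell in the order of replicates 1, 2, 4 and 3 in all 5 groups, and replicate 2 had the most reads in all 5. Over features the correlation of their deviations was weak (−0.0045 to 0.040 in 40 pairs, median 0.018, against a median of −0.0050 in 120 pairs of different number), and 13 of 20 libraries correlated best with their own number. The labels do not say what a number marks. Depth limits the low members, since 14 of the 25 had X under 30 in the lower T1 group.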
